A study of Rattus norvegicus with 6 samples.

Results

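Svop, the SV2-related protein of synaptic vesicles, was chosen by its STZ against Control difference in these same libraries, and its relatives Svopl, Sv2a, Sv2b and Sv2c and its overlapping neighbour Usp30 were taken with it by gene symbol. Of the 6 genes, 4 (Svop, Sv2a, Sv2b and Usp30) had a row among the 18930 rows of the count table, and 3 of these (Svop, Sv2a and Usp30) passed the filter on low counts that left 11870 genes for testing. The table had no row named Svopl or Sv2c, which were not analysed here. The RNA came from NRK-52E, an established wild-type line of rat kidney epithelial cells. STZ (streptozotocin) is a glucose-like alkylating drug. The STZ group held 3 samples of cells kept in 10 mM of STZ for 24 h, and the Control group held 3 samples of the same line given vehicle. Whether the 3 samples of a group were separate cultures is not given in the sources used here, so each SD below is the spread between these samples. Standard errors come from the fit over all genes tested, and counting intervals from the reads alone.

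SV2 proteins and Svop are membrane proteins of the major facilitator superfamily, the family of transporters that also holds the organic ion carriers of the kidney. In neurons and endocrine cells they sit in the membrane of synaptic vesicles and secretory granules, which store transmitters or hormones and release them by fusing with the cell surface. SV2A is best known as the binding site of the antiseizure drug levetiracetam, and SV2 proteins bind synaptotagmin and serve as receptors of botulinum neurotoxin. SVOP resembles SV2 in its transmembrane part and binds nucleotides, with NAD among them, and the molecule that it carries is not known. USP30 belongs to another protein family, being a deubiquitinase of the outer mitochondrial membrane that restrains mitophagy, the removal of mitochondria by autophagy.

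The 250 bases before the annotated start of Svop, Usp30 and Sv2a are shown because Svop and Usp30 lie back to back on opposite strands, and because Sv2a is the close relative of Svop with the most reads. They were taken from RefSeq in the GRCr8 build, whereas the counts were made on Rnor6. All 6 genes matched an entry by symbol. The Svop window is chr12:48191299-48191548 on the plus strand, that of Usp30 is chr12:48185598-48185847 on the minus strand, and that of Sv2a is chr2:186430113-186430362 on the plus strand. Each is written 5′ to 3′ in the direction of its gene, and capitals mark GGGCGG, the core of a GC box, on either strand (read as CCGCCC on the other).
Svop: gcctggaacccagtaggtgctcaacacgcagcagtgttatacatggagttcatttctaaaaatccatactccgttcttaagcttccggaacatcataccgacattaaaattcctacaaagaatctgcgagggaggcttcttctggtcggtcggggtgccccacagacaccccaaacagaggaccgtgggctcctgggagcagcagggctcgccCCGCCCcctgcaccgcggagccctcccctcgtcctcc
Usp30: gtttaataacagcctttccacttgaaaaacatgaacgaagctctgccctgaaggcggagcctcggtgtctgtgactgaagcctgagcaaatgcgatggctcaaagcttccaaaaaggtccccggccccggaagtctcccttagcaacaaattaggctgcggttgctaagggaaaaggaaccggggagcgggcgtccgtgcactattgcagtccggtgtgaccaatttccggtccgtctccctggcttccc
Sv2a: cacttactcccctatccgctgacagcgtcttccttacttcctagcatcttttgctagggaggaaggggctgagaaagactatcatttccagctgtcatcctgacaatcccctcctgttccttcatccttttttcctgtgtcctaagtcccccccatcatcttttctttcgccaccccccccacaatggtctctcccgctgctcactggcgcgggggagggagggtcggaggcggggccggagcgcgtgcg

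The Svop window held 1 GC box core and those of Usp30 and Sv2a held none, whereas 30.5% of the 33469 rat promoters of this length held at least 1. CCAAT was present in the Usp30 window, which was also true of 34% of all promoters, and was absent from those of Svop and Sv2a. No window of the 3 had TATAAA (12.9% of all promoters), TGACGTCA (1.59%) or an exact p53 half-site (6.64%), each searched on both strands. The GC content was 57.2% for Svop, 55.2% for Usp30 and 58% for Sv2a, against a median of 51.2% over all promoters. The annotated starts of Svop and Usp30 were 5952 bases apart and their transcripts pointed away from each other. In the same annotation the whole span of Usp30, over all its transcript models, reaches past the start of Svop, so the spans of the genes overlap. The libraries were made with a stranded kit, but the strand setting used in counting is not given in the sources used here, so reads from the overlap may not be fully separated.

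Svop had few reads in vehicle-treated cells and many in STZ-treated cells. The counts were 30, 37 and 37 reads in Control replicates 1, 2 and 3, and 375, 326 and 442 reads in STZ replicates 1, 2 and 3. Scaled to the size of each library as CPM, with edgeR's TMM factors, these were 2.83, 3.36 and 2.89 CPM in Control and 27.3, 28.3 and 29.5 CPM in STZ. Every STZ sample lay far above every Control sample, and the samples within a group lay close together. The mean was 28.4 ± 1.12 CPM in STZ (SD, n = 3) and 3.03 ± 0.29 CPM in Control (SD, n = 3). The fitted log2 fold change was 3.23 (standard error 0.12), a 9.37-fold difference. Even the pair of samples that lay closest, STZ replicate 1 and Control replicate 2, differed 8.1-fold in CPM. Because Svop was chosen by this difference, it is given as a description and no test is attached to it.

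Counting error was estimated from the reads of each sample. The 30 reads of Control replicate 1 have an exact 95% Poisson interval of 20.2 to 42.8 reads, and the 37 reads of replicates 2 and 3 have one of 26.1 to 51. In CPM the highest upper bound in Control was 4.64, and the lowest lower bound in STZ was 24.6. Svop was chosen by this gap, so the distance between these bounds is a description and not a test. These intervals cover counting error only and leave out variation between samples. Reads from PCR are not independent molecules, so the intervals may be too narrow even for counting error. The coefficient of variation of Svop between samples was 9.74% in Control and 3.94% in STZ. Only 7 of the 11870 genes tested had a larger log2 fold change than Svop, and those 7 had at most 6 reads in any Control sample and at most 47 in any STZ sample. By read counts not corrected for gene length, Svop went from percentile 11 of the genes tested in Control to percentile 42.9 in STZ. CPM values are shares of the RNA sequenced, so that a change per cell cannot be told apart from a change in how many cells contributed.

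**Figure D1:**
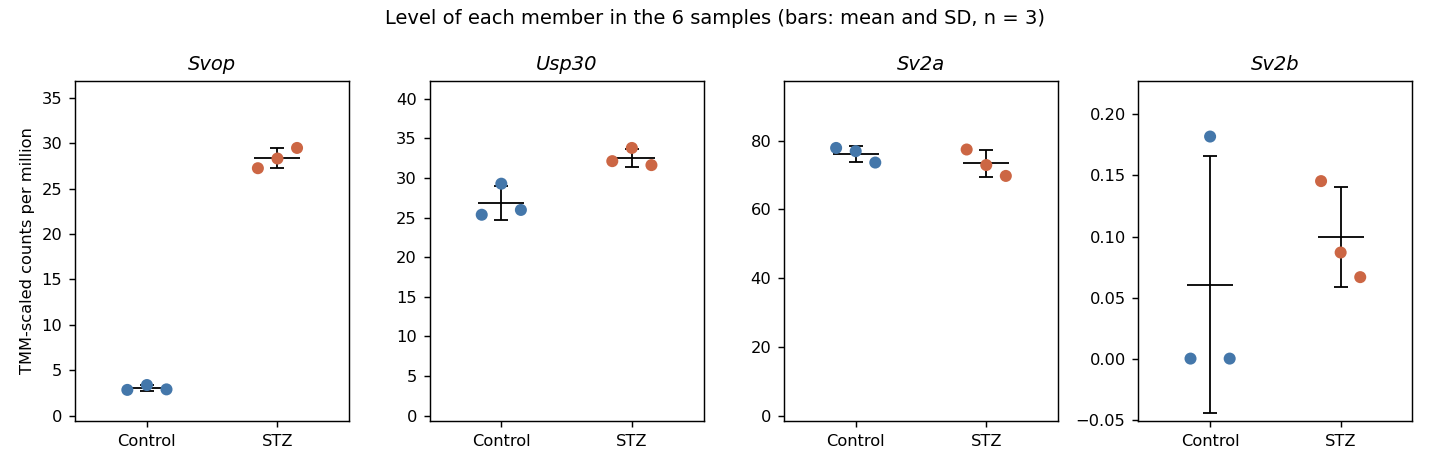
The 4 panels plot TMM-scaled CPM on a linear axis for Svop, Usp30, Sv2a and Sv2b in 3 Control samples (blue) and 3 STZ samples (orange), with the mean and SD of each group in black. The groups of Svop and Usp30 do not overlap, those of Sv2a do, and the Sv2b points stand for 0 to 2 reads each.

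Sv2a, the SV2 form found most widely in the nervous system, was present in both groups at similar levels. Its counts were 826, 846 and 944 reads in Control and 1065, 839 and 1045 reads in STZ. In CPM it had 77.9, 76.9 and 73.6 in Control and 77.4, 72.9 and 69.7 in STZ. The groups overlapped, with STZ replicate 1 inside the range of the Control samples. The means were 73.3 ± 3.86 CPM in STZ and 76.1 ± 2.24 CPM in Control (SD, n = 3 each). The fitted log2 fold change was -0.053 with a standard error of 0.052, so the difference was about as large as its own error. The most distant pair of samples differed 0.895-fold in CPM (the lowest STZ sample over the highest Control sample).

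Sv2b was at the edge of detection. It had 0, 2 and 0 reads in Control and 2, 1 and 1 reads in STZ, and it did not pass the filter. Every library was under the level that 3 reads would give, which was between 0.2 and 0.283 CPM. Pooled over a group, 2 reads among 34070847 gave 0.0587 CPM in Control (exact 95% Poisson interval 0.00711 to 0.212) and 4 reads among 40771015 gave 0.0981 CPM in STZ (0.0267 to 0.251). A difference in Sv2b was not detectable at this depth, and no fold change is given.

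Usp30 was slightly higher in STZ-treated cells. Its counts were 269, 322 and 333 reads in Control and 442, 389 and 474 reads in STZ. In CPM the values were 25.4, 29.3 and 26 in Control and 32.1, 33.8 and 31.6 in STZ. All STZ samples lay above all Control samples, but the lowest STZ sample exceeded the highest Control sample by only 1.08-fold. The means were 32.5 ± 1.14 CPM in STZ and 26.9 ± 2.11 CPM in Control (SD, n = 3 each), and the fitted log2 fold change was 0.27 (standard error 0.07). Of the 3 members tested, Svop and Usp30 had groups that did not overlap, higher in STZ. Over all genes tested, 28.6% had this, and the members' contrast was the one Svop was chosen by, so nothing is read from their count.

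Because Usp30 overlaps Svop, the gains of both were set side by side. The mean of Svop was 25.3 CPM higher in STZ than in Control, while that of Usp30 was 5.65 CPM higher, which is 22.3% of the gain of Svop. How far reads of one gene were counted for the other was not tested. Ratios of reads within a sample do not depend on library scaling. In Control there were 11.2, 11.5 and 11.1 Svop reads per 100 Usp30 reads, and in STZ there were 84.8, 83.8 and 93.2. The ratio was thus nearly constant in Control, and all STZ samples stood far above it. Per 100 Sv2a reads, Svop had 3.63, 4.37 and 3.92 reads in Control and 35.2, 38.9 and 42.3 reads in STZ. Usp30 had 32.6, 38.1 and 35.3 reads per 100 Sv2a reads in Control and 41.5, 46.4 and 45.4 in STZ. The groups were apart in all 3 ratios. Svop was chosen by its gap between these groups, so the separation of the ratios that hold Svop follows from that choice. The ratio of Usp30 to Sv2a restates their counts given above. These are ratios of reads and not of transcripts, since gene length was not corrected for.

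**Figure D2:**
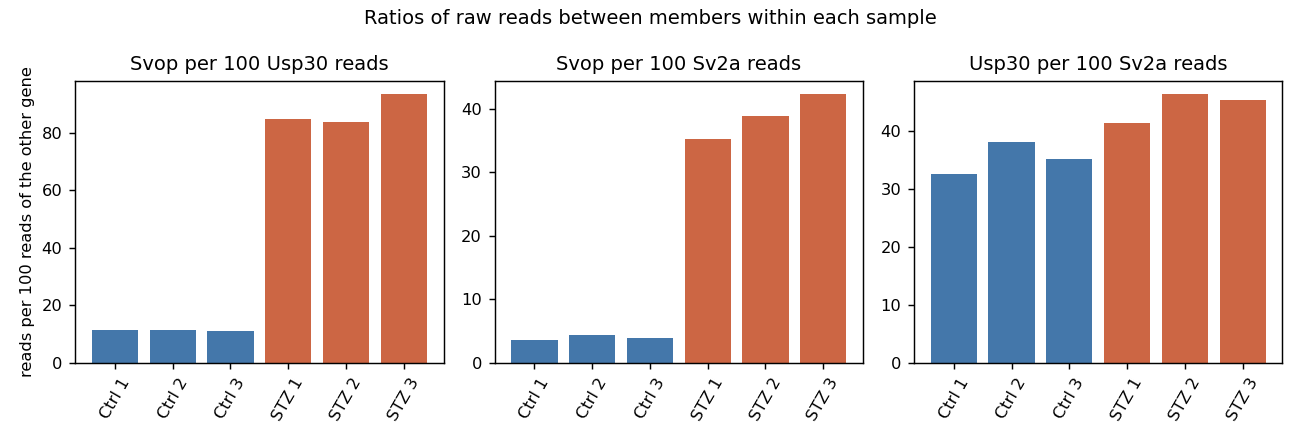
Bars give, for each of the 3 Control (Ctrl, blue) and 3 STZ (orange) samples, raw reads of one member per 100 raw reads of another, on axes that start at 0. Svop per 100 Usp30 reads is 11.1 to 11.5 in Control and 83.8 to 93.2 in STZ, and Usp30 per 100 Sv2a reads moves from 32.6 to 38.1 up to 41.5 to 46.4.

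The 5 tested genes whose log2 CPM over the 6 samples correlated best with that of Svop were Plk2, Lgals3, Tm9sf4, Hmox1 and Ctsl, with Pearson's r between 0.9991 and 0.9997. Plk2, a polo-like kinase, had 57.7 ± 2.51 CPM in Control and 192 ± 8.4 CPM in STZ (SD, n = 3 each). Hmox1, which encodes heme oxygenase 1, had 12.7 ± 0.82 CPM in Control and 43.7 ± 2.39 CPM in STZ (SD, n = 3 each). The log2 fold changes of these 5 genes ran from 0.30 for Tm9sf4 to 1.78 for Hmox1, and all were smaller than that of Svop. With samples in 2 groups this likeness mostly reflects the gap between groups, and 293 of 11020 named genes had an r over 0.99. It is a description over 6 samples.

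**Figure D3:**
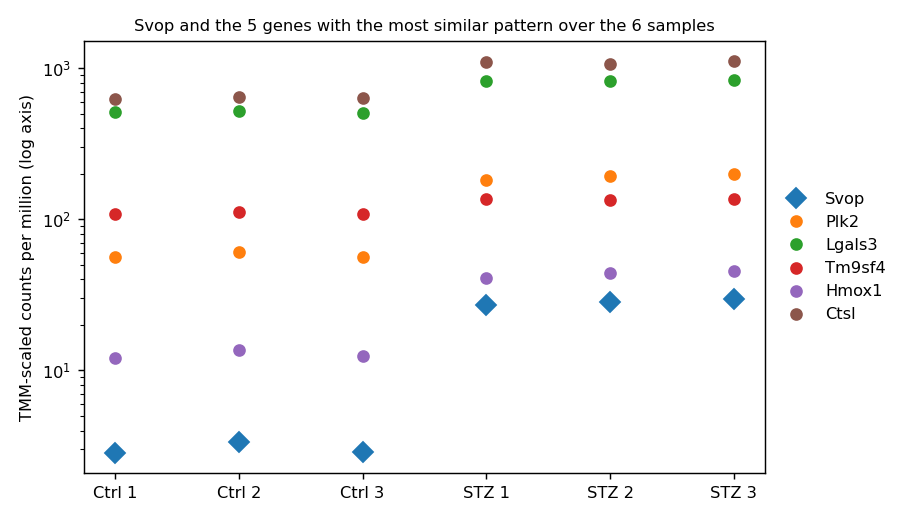
Points give TMM-scaled CPM (log axis) of Svop (diamonds) and of the 5 genes with the highest Pearson's r with it (circles) in each of the 6 samples. Each gene has 3 lower values in Control (Ctrl) and 3 higher ones in STZ, and Svop has the largest step, from 3.03 to 28.4 CPM on average.

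The neighbours of Svop were the 10 protein-coding genes on each side of it in the GRCr8 annotation, with Usp30 among them. Of these 20 genes, 18 had a row and 13 were tested, of which 6, with Usp30 among them, were higher in STZ and 5 were lower. Here a gene was called when its p from the quasi-likelihood test of edgeR, adjusted by Benjamini-Hochberg across all tested genes, was under 0.05. Over all genes tested, 25.9% were higher and 25.1% lower at that threshold. Ung and Alkbh2, which follow Usp30 on its far side and repair uracil and alkylated bases in DNA, fell. Ung had 244, 229 and 307 reads in Control and 77, 76 and 83 in STZ, which is -1.95 ± 0.11 as log2 fold change ± standard error (adjusted p = 1.25e-18 in the same edgeR test). Alkbh2 had 70, 81 and 83 reads in Control and 39, 38 and 53 in STZ, which is -1.07 ± 0.17 on that scale (adjusted p = 1.33e-06 in that edgeR test). Mvk and Mmab, at the far end of the same side, are a back-to-back pair whose starts lie 254 bases apart, and they fell with log2 fold changes of -1.04 and -1.07. Between Mmab and Ung, Kctd10 and Ube3b rose, with log2 fold changes of 0.60 and 0.25. Thus 4 of the 13 genes were called and also differed more than 2-fold, all 4 of them lower. Over all genes tested, 1.11% passed both of these thresholds lower and 2.26% higher, and none of the 13 neighbours did so higher.

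On the other side of Svop no gene passed both thresholds. Dao, the next gene, had 3 to 8 reads in any sample and was not tested. Ssh1 had a log2 fold change of -0.02 and Coro1c of 0.10 (standard error 0.05 and 0.04), and the groups of both overlapped. Coro1c counts among the 6 higher genes with an adjusted p of 0.0448 in the edgeR test, and its call was lost under 9 alternatives. Tmem119 rose, from 81.3 ± 3.47 CPM in Control to 142 ± 7.7 CPM in STZ (SD, n = 3 each, log2 fold change 0.80, adjusted p = 5.24e-18 in the same edgeR test). Svop itself, picked for its rise, had the largest absolute log2 fold change of the stretch, and no test of the stretch as a whole was made.

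**Figure D4:**
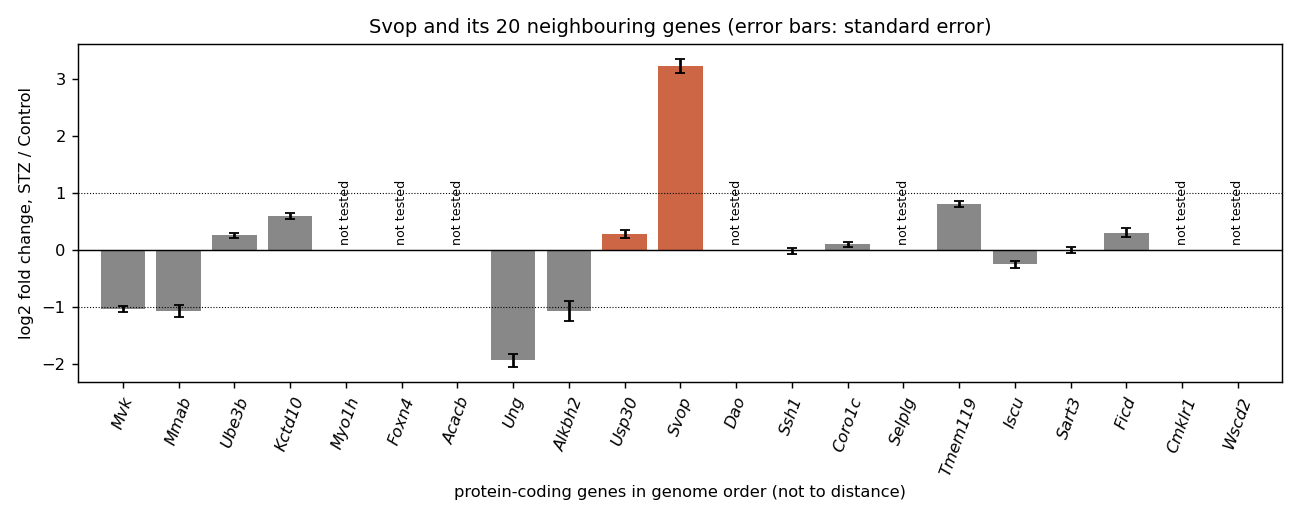
Bars give the log2 fold change (STZ over Control) with its standard error for Svop and Usp30 (orange) and the other neighbours of Svop (grey) in genome order, with dotted lines at 1 and -1. Svop stands at 3.23, Ung, Alkbh2, Mvk and Mmab lie below -1, and genes with too few reads are written as not tested.

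Other genes of vesicles were compared with Svop from lists of known members, counted by direction in the same edgeR test and set beside the 25.9% higher and 25.1% lower of all genes. Of 37 listed genes of synaptic vesicles and transmitter loading with a row, 17 were tested, of which 8 were higher and 2 lower, with a median log2 fold change of 0.14 (all genes tested: -0.0055). Slc17a6, a vesicular glutamate transporter, was the one that passed both thresholds upward, with 23, 23 and 31 reads in Control and 67, 61 and 80 in STZ (log2 fold change 1.21, standard error 0.20). Atp6ap1 and Atp6ap2, accessory parts of the proton pump that energises vesicle loading, rose by 0.47 and 0.42 on the log2 scale. Syn3, a synapsin, fell by 1.02 and Atp6v0a1, a pump subunit, fell by 0.28 on that scale. Genes for vesicle proteins of neurons ranged from near absent to well detected, chosen here after their values were seen. Syp (synaptophysin) and Syt1 (synaptotagmin 1) had at most 1 read in any sample, whereas Syngr1 (synaptogyrin 1) had 198 to 326 reads, Syn1 (synapsin 1) 49 to 111 and Vamp2 (synaptobrevin 2, counted with exocytosis) 526 to 820. The 20 listed genes that were not tested had at most 15 reads in any sample.

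Among genes of exocytosis, 37 of 46 with a row were tested, of which 11 were higher and 3 lower (median log2 fold change 0.05). With 10 counts or more required in every sample, 33 were tested, of which 10 were higher and 3 lower. Sytl1, a synaptotagmin-like partner of Rab27, rose from 19, 19 and 22 reads in Control to 92, 69 and 82 in STZ (1.79 ± 0.21 as log2 fold change ± standard error, adjusted p = 1.08e-09 in the edgeR test). Rab3gap1, which acts on Rab3, rose by 0.31 on the log2 scale, and Stx2, Unc13a and Rab3ip fell by 0.35, 0.50 and 0.26. Among transporters of the SLC22 family and related facilitators, the superfamily of Svop, 20 of 33 were tested, of which 7 were higher and 2 lower (median 0.08) and none passed both thresholds. Mfsd1, Spns2 and Mfsd6 rose by 0.37, 0.62 and 0.51, and Mfsd9 and Unc93b1 fell by 0.45 and 0.60 on the log2 scale, the call of Unc93b1 being lost with DESeq2 and without each of 4 samples. With library size as the only scaling, 4 of these 20 were higher in place of 7. That scaling also moved all genes tested, to 2664 higher and 3485 lower from 3070 and 2976. Of the genes of synaptic vesicles 6 were then higher in place of 8, and of those of exocytosis 8 in place of 11.

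Neuronal and neuroendocrine genes covered a wide range of levels. Of 26 with a row, 16 were not tested and had at most 7 reads in any sample, among them Chga, Stmn2 and Elavl4, which had at most 2. The other 10 were tested, and the one with the most reads was Ncam1, a cell adhesion molecule, at 203 ± 9.73 CPM in Control and 197 ± 10.3 CPM in STZ (SD, n = 3 each), followed by Eno2 (neuronal enolase) at 47.2 ± 1.05 and 81.6 ± 3.39 CPM. Of the 10, 4 were higher and 1 lower (median log2 fold change 0.39). Eno2, Cpe and Pcsk1n rose by 0.79, 0.63 and 0.54 on the log2 scale. Tubb3, a neuronal tubulin named after its values were seen, had 2, 4 and 12 reads in Control and 21, 27 and 32 in STZ. Its log2 fold change was 1.91 (standard error 0.38), the one of the list past both thresholds. It passed the filter on low counts through its STZ samples, where it is high, so this is a description and not a test. With 10 counts or more required in every sample, 6 genes of the list were tested, of which 3 were higher and 1 lower. Map2 fell by 0.34, a call that was lost with DESeq2 and without each of 4 samples (Control replicate 2 and STZ replicates 1, 2 and 3). For Usp30, 33 genes of mitophagy and mitochondrial ubiquitin were all tested, of which 10 were higher, 4 lower and 19 did not pass (median 0.03), and none passed both thresholds. Sqstm1, Nbr1 and Ambra1, which act in autophagy, rose by 0.42, 0.33 and 0.38, and Fundc1, a mitophagy receptor, Vdac3, a mitochondrial channel, and Usp33, another deubiquitinase, fell by 0.41, 0.26 and 0.25 on the log2 scale. The difference of Usp30, 0.27, lay within the range of this list, -0.41 to 0.42.

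**Figure D5:**
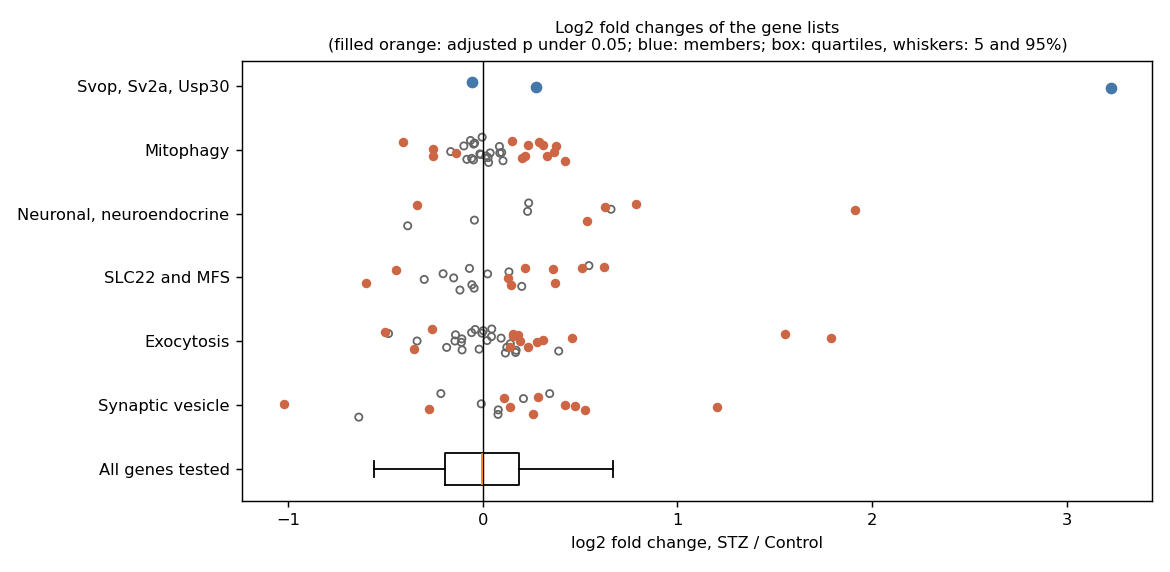
Points give the log2 fold change (STZ over Control) of every tested gene of 5 lists, filled where the adjusted p was under 0.05, above a box of all 11870 genes tested (quartiles, whiskers at 5 and 95%). The members are the blue points, with Svop at 3.23 to the right of every listed gene and Sv2a and Usp30 at -0.05 and 0.27.

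Depth and identity of the libraries bear on these values as follows. Total counts ran from 10430924 to 15191349 reads per sample. The TMM factors were 1.01 to 1.02 in Control and 0.988 to 0.989 in STZ, so they differed by group, and no library stood apart from its group. Of 12 epithelial markers, 6 had a row. Krt8 and Tjp1 were abundant, at 1149 and 612 CPM on average in Control, while Cdh1 had 16 to 35 reads and Krt18 0 to 3 reads per sample. Of 12 proximal tubule markers 8 had a row, led by Ggt1 (45.1 CPM in Control) and Aqp1 (13.1 CPM), while Lrp2, Slc34a1 and Slc2a2 had at most 4 reads. Of 8 fibroblast markers 7 had a row, led by Col3a1 (53.9 CPM in Control) and Col1a1 (30.3 CPM), while Pdgfra, Col1a2, Thy1 and Lum had at most 4 reads in any sample. Markers of all 3 kinds moved with the groups. Col3a1, Col1a1 and Pdgfrb, the 3 fibroblast markers tested, were lower in STZ, with log2 fold changes of -1.35, -0.27 and -0.33. Of the epithelial markers Krt8 and Tjp1 were higher (0.48 and 0.15) and Cdh1 was lower (-0.69), and of the proximal tubule markers Ggt1 was higher (0.73) and Aqp1 lower (-1.25), by the same edgeR test. Their part in the values of Svop and Usp30 was not tested.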

How the data were processed

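RNA of 6 NRK-52E samples was sequenced from TruSeq stranded mRNA libraries as single-end reads. The authors mapped the reads to Rnor6 with STAR 2.7.10a, kept unique alignments, and tallied them by gene with featureCounts of Subread. The deposited table holds these raw counts, 1 column per sample, and lists no gene without a read. The annotation and strand setting are not given in the sources used here. Of 18930 rows, 2871 carried only an Ensembl identifier, so a gene without a named row may be among them.

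From these counts, edgeR 4.0.16 in R 4.3.3 gave TMM scaling, filtering by filterByExpr, and the quasi-likelihood test of STZ against Control, with Benjamini-Hochberg adjustment over 11870 genes. Both thresholds (adjusted p under 0.05, absolute log2 fold change over 1) follow the methods of the study. Standard errors were obtained from each log2 fold change and the square root of its F statistic. The steps were tested on simulated counts. Replicates varied beyond what sampling of reads alone gives (chi-square per degree of freedom at least 1.85). With 3 samples against 3, an exact permutation test of 1 gene cannot go below p = 0.1, so none was run.

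The members and lists were chosen with earlier results of these data known. Named were the members, up to 3 genes with the smallest p in each direction of each list, tested neighbours within 5 positions, further neighbours past both thresholds, the 5 genes most like Svop, and the 2 most abundant markers of each cell type; a gene that this rule names is not reported here. Alternatives were 3 filters, 3 scalings, 3 tests (DESeq2 1.42.0, edgeR's exact test and limma-voom with limma 3.58.1), the replicate block, and each sample left out.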

Additional observations from a re-analysis of the deposited data

How the results depend on the processing

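Under 16 alternatives the log2 fold change of Svop ran from 3.19 to 3.31, that of Usp30 from 0.24 to 0.34 and that of Sv2a from -0.09 to -0.01, each within the spread between replicates of the value reported. The number of called neighbours was 10 to 11, of synaptic vesicle genes 8 to 10, of exocytosis genes 11 to 14, of SLC22 and related genes 6 to 9, of neuronal genes 4 to 5 and of mitophagy genes 13 to 16. Among all genes, 5049 to 6199 were called under the same alternatives. The number tested changed with the filter, from 11297 to 18930 over all genes, and so did the number tested in most lists. The number of all genes past both thresholds, 400, fell to 249 when every sample had to hold 10 counts or more, which tests fewer genes, and was 585 with no filter and 403 to 462 with one sample left out. With one sample left out, the log2 fold change of Ssh1 ran from -0.064 to 0.025 and that of Sart3 from -0.039 to 0.037, neither past the threshold in any fit, and the sign turned in 4 fits; the cause was not tested. There were 688 refits of 43 named genes and neighbours, with Ssh1 and Sart3 among them and the members left out. Of these refits, 664 kept direction and side of the threshold, and 4 were the turned signs of Ssh1 and Sart3. The call was lost in 20, all of them for Coro1c, Map2, Unc93b1 and Rab3ip. Unc93b1 was lost with DESeq2 and without Control replicate 2, Control replicate 3, STZ replicate 1 or STZ replicate 2 (adjusted p 0.0657 to 0.0913), and Map2 with DESeq2 and without Control replicate 2 or STZ replicate 1, 2 or 3 (0.0521 to 0.169). Rab3ip was lost without STZ replicate 1 (0.0515). Coro1c was lost without Control replicate 1 or 2 and STZ replicate 1 or 3 (0.103 to 0.222), and with no filter, the filter of 0.5 CPM in 1 sample, 2 other scalings and DESeq2.

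Control and STZ share replicate numbers. Deviations of same-numbered samples from their group means correlated at 0.0319, -0.0389 and 0.102 across 10341 genes. Differently numbered samples were not compared in this way, so whether same-numbered samples belong together was not settled. For all genes called, the count was 6199 with the replicate block and 6046 without it, and the log2 fold changes were 3.23 for Svop and 0.28 for Usp30. Depth limits Sv2b, with at most 2 reads in a sample, and the Control level of Svop.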

Other observations

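Other members of the Sytl family were picked after their values were seen. Sytl2 had 3, 9 and 5 reads in Control and 19, 18 and 22 in STZ (log2 fold change 1.55, standard error 0.39). It passed the filter on low counts only through its STZ samples, where it is high, so no test is attached to it. Sytl3 did not pass the filter, with 1, 3 and 0 reads in Control and 9, 9 and 10 in STZ. Sytl4, the most abundant of the family in Control, had 12.2 CPM in Control and 12 CPM in STZ, with a log2 fold change of -0.04 (standard error 0.11). Sytl5 had at most 1 read in any sample.

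Among carriers that load vesicles with transmitter, Slc17a6 was the one with a rise. Slc18a2, which loads monoamines, had 51, 56 and 76 reads in Control and 61, 54 and 69 in STZ, a log2 fold change of -0.21 (standard error 0.17). Slc17a7, another glutamate carrier, had 20, 17 and 19 reads in Control and 14, 13 and 15 in STZ, which is -0.64 ± 0.31 on that scale (adjusted p = 0.0815 in the same edgeR test). Both were named after their values were seen.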
